A study of Glycine max with 6 samples.

Results

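Heat shock factors and heat shock proteins were followed in leaves of 2 soybean (Glycine max) genotypes, HN44 and SN14, grown in the field under natural conditions at Harbin, with 3 RNA-seq libraries each. The series sets them against each other for their water use efficiency, without naming the more efficient one. Nothing states that the 3 libraries were made from different plants; the p-values below therefore describe library-to-library spread, part of which may be technical. No heat treatment is named. Members are the genes with a RefSeq symbol or synonym that begins with HSP or HSF. There are 57, of which 54 of the 41759 genes in the deposited table are described here, and HSF-12, HSF-27 and HSP22.5 were not analysed here. By the size in the symbol they are 37 heat shock factors, 4 HSP90 genes, 1 HSP70 gene, 1 HSP40 gene, 10 small heat shock proteins of 15 to 30 kDa, and HSP6834-A, whose symbol gives no size. No member falls in the HSP100 class. Genes known only by a LOC number were not searched, so the classes hold the named genes alone.

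Heat shock factors are transcription factors that bind heat shock elements in promoters and switch on chaperone genes when proteins unfold. In plants the family is large: class A factors activate, while class B factors lack the activation motif and can act as repressors or helpers. Among the chaperones, HSP90 completes the folding of signalling proteins, including disease resistance receptors and heat shock factors themselves, and HSP70 with HSP40 partners binds newly made or unfolded chains. Small heat shock proteins hold unfolding proteins without using ATP, and in most plants are scarce in leaves that have not been heated.

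The deposited values are FPKM (fragments scaled for gene length and sequencing depth), which allows levels of genes of different length to be compared. HN44-3 took values between those of HN44-1 and HN44-2 in 1978 of 1992 genes (99.3%) that averaged 5 FPKM or more and differed over 2-fold in that pair. The same share was 42.6% to 67.9% when any SN14 library was set against the remaining SN14 pair. Of the 36 members at 1 FPKM or more in HN44-1 or HN44-2, HN44-3 lay between them in 29. For its place over all genes, HN44-3 is not counted as an independent replicate. The fit, the HN44 means and the HN44 standard deviations (SD) use HN44-1 and HN44-2 (n = 2), against SN14-1, SN14-2 and SN14-3 (n = 3), and calls with HN44-3 are given beside them. All 13 leaf marker genes in the table (Rubisco small subunit, Rubisco activase, light-harvesting and photosystem genes) were above 1 FPKM in every library. Their sum was 57955 and 77247 FPKM in HN44-1 and HN44-2 and 79348 to 93915 FPKM in SN14. Single markers differed in direction. RBCS1 stood at 14284 and 29373 FPKM in HN44-1 and HN44-2, against 35455 to 37597 FPKM in SN14. RCABETA stood at 9877 and 7872 FPKM in HN44-1 and HN44-2, against 4121 to 6898 FPKM in SN14. Of 4 genes matched by the seed patterns, the seed protein genes GY3 and BBI-1 stayed at or under 0.24 FPKM, and CGS1 and CGS2, matched by the first letters of their symbols alone, stood at 96.2 to 288 FPKM. The 21 genes matched by the nodule patterns, most of them LBD genes matched in the same way, summed to 14.6 and 23.8 FPKM in HN44-1 and HN44-2 and to 19.8 to 23.2 FPKM in SN14.

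Expression fell into a few well expressed genes and a long tail. In 18 of the 54 members no library reached 1 FPKM, and 38 of their 108 values were listed at 0. The 33 members with at least 1 FPKM in at least 2 of the 5 libraries were tested. None of the 33 was above 1 FPKM in only 1 genotype. The sum over all 54 members was 305 and 288 FPKM in HN44-1 and HN44-2 (298 in HN44-3), against 172, 241 and 210 FPKM in SN14-1, SN14-2 and SN14-3.

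Among the chaperones, HSP90-1 had the highest level in every library but SN14-3, where HSP23.9 and HSP90-2 were above it. HSP90-1 (chromosome 18, 7029162 to 7031879) stood at 53.8 and 43.2 FPKM in HN44-1 and HN44-2 (46.7 in HN44-3), and at 25.0, 40.6 and 20.8 FPKM in SN14-1, SN14-2 and SN14-3. The lowest HN44 library thus lay just above the highest SN14 library. HSP90-2 (chromosome 8, 44997146 to 44999824) stood at 30.6 and 22.1 FPKM in HN44 (28.5 in HN44-3) and at 18.0, 33.04 and 22.5 FPKM in SN14. For HSP90-2 the genotypes overlapped, and its highest value was that of SN14-2. The means of HSP90-1 were 48.5 ± 7.46 FPKM in HN44 and 28.8 ± 10.4 FPKM in SN14, with a log2 fold change of 0.78 ± 0.34 (SE; limma adjusted p = 0.366).

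HSP90A1 and HSP90A2 were lower in level and further apart between the genotypes. HSP90A1 (chromosome 9, 32754514 to 32757973) stood at 12.3 and 6.60 FPKM in HN44-1 and HN44-2 (10.8 in HN44-3), and at 1.76, 3.83 and 1.66 FPKM in the SN14 libraries. Every HN44 library was above every SN14 library, and the mean in HN44 was 3.90 times that in SN14. The log2 fold change was 1.61 ± 0.39 (SE), with a limma adjusted p of 0.215 with 5 libraries and of 0.0417 with all 6. HSP90A2 (chromosome 16, 33950071 to 33953833) stood at 2.31 and 0.94 FPKM in HN44 (1.19 in HN44-3) and at 0.28, 0.53 and 0.27 FPKM in SN14. It did not reach 1 FPKM in enough libraries to be tested, and its libraries also did not overlap between the genotypes. The labels do not say how reads of similar HSP90 copies were divided among them, so single HSP90 values are uncertain to that extent.

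The make-up of the HSP90 class can be read within each library, where scaling cancels. HSP90A1 and HSP90A2 together took 14.7% and 10.4% of summed HSP90 FPKM in HN44-1 and HN44-2 (13.7% in HN44-3), against 4.5%, 5.6% and 4.3% in the SN14 libraries. The ratio of HSP90-1 to HSP90A1 was 4.38 and 6.55 in HN44, against 14.2, 10.6 and 12.5 in SN14. These shares were looked at after the levels of both genes had been seen and were not tested.

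**Figure D1:**
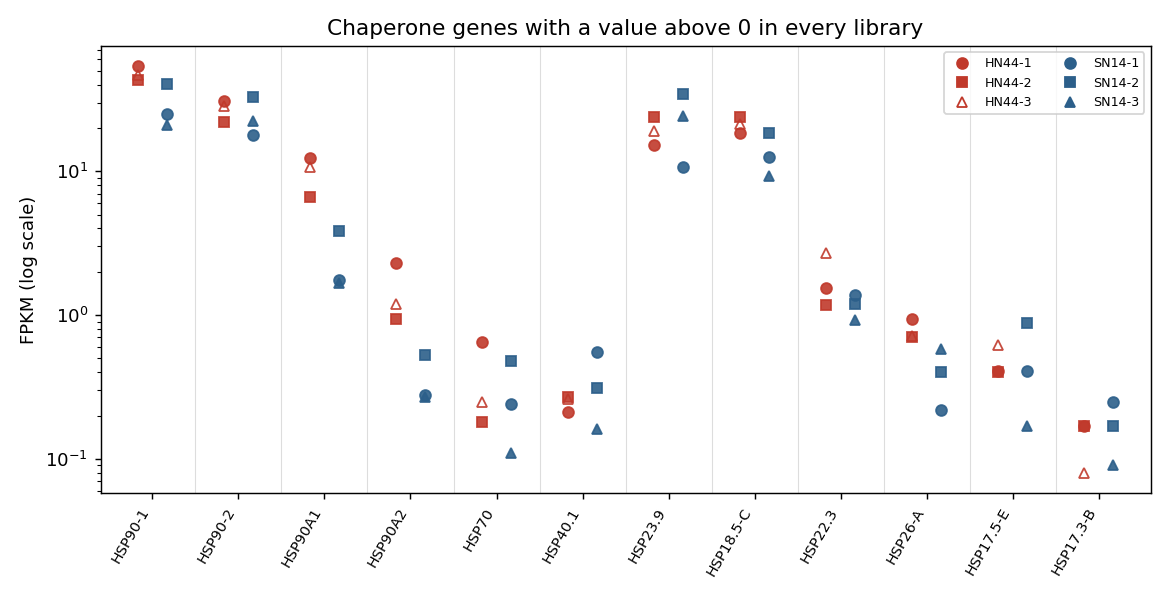
FPKM on a log axis of the 12 chaperone-class genes with a value above 0 in every library; each point is 1 library, with HN44 left in red (HN44-3 open) and SN14 right in blue. HSP90A1 at 6.60 FPKM or more in HN44 and at 3.83 FPKM or less in SN14 does not overlap, while HSP90-2 and HSP23.9 do.

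The 1 HSP70 member and the 1 HSP40 member were scarcely expressed, which does not describe their whole families. DNAJ, for an HSP40-type protein outside the member list, averaged 47.9 FPKM in HN44 and 49.0 FPKM in SN14. The only gene with the symbol HSP70 (chromosome 17, 5661159 to 5663621) stood at 0.65 and 0.18 FPKM in HN44 (0.25 in HN44-3) and at 0.24, 0.48 and 0.11 FPKM in SN14. HSP40.1, named for the co-chaperones that deliver clients to HSP70, stood at 0.21 and 0.27 FPKM in HN44 (0.26 in HN44-3) and at 0.55, 0.31 and 0.16 FPKM in SN14. Both overlapped between the genotypes and neither was tested. HSP6834-A was listed at 0 in the HN44 libraries and stood at 0.09, 0.17 and 0 FPKM in SN14-1, SN14-2 and SN14-3.

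The small heat shock proteins split into a pair of well expressed genes, 1 gene at 0.93 to 2.68 FPKM and 7 genes under 1 FPKM throughout. HSP23.9 (chromosome 12, 946510 to 947844) stood at 15.1 and 24.0 FPKM in HN44-1 and HN44-2 (19.0 in HN44-3), and at 10.7, 34.2 and 24.3 FPKM in SN14-1, SN14-2 and SN14-3. The SN14 libraries of HSP23.9 enclosed those of HN44, with a log2 fold change of -0.12 ± 0.50 (SE; limma adjusted p = 0.918). HSP18.5-C on chromosome 7 stood at 18.4 and 23.7 FPKM in HN44 (21.2 in HN44-3) and at 12.5, 18.4 and 9.24 FPKM in SN14. Its libraries barely separated, with HN44-1 at 18.41 and SN14-2 at 18.4, and its log2 fold change was 0.66 ± 0.33 (SE; limma adjusted p = 0.406). In the authors' table HSP18.5-C spans 36874214 to 36884368, and LOC100526893 lies inside that span on the same strand. HSP22.3 stood at 1.54 and 1.18 FPKM in HN44-1 and HN44-2 and at 1.37, 1.19 and 0.93 FPKM in SN14. Its 2.68 FPKM in HN44-3 lay above both other HN44 libraries.

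The 7 low members of this class are HSP17.3-B, HSP17.5-E, HSP17.5-M, HSP17.6-L, HSP17.9-D, HSP22.0 and HSP26-A, with a highest value of 0.94 FPKM and 11 of 42 values listed at 0. That highest value belonged to HSP26-A, which also carries the synonyms GmGST1 and GSTU23 of a glutathione S-transferase, so its name is not evidence of a small heat shock protein. HSP26-A stood at 0.94 and 0.70 FPKM in HN44 and at 0.22, 0.40 and 0.58 FPKM in SN14. Among short genes such as HSP22.0, listed at 0.18 and 0.09 FPKM in HN44 and at 0.09, 0 and 0.28 FPKM in SN14, values lay near whole multiples of 0.09 and so rest on very few reads. HSP17.6-L, at 0.16 and 0 FPKM in HN44-1 and HN44-2 (0.31 in HN44-3) and 0.25, 0.17 and 0.51 FPKM in SN14, was the only member with both of these HN44 values below those of SN14, and HN44-3 overlapped. HSP17.5-E lies within the span of an opposite-strand gene with a mean of 85.4 FPKM, and no label says whether counting used strand.

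Among the named members, the heat shock factors were the largest class in number and in summed level. Genes known only by a LOC number were not searched, so this order does not rank the whole gene families. Of the 37 factors, 29 reached 1 FPKM in some library, and 27 were tested. The summed FPKM of all 37 was 168.5 and 164.5 in HN44-1 and HN44-2 (165.7 in HN44-3), against 100.5, 106.4 and 128.5 in the SN14 libraries. These sums did not overlap, with a mean of 167 ± 2.81 FPKM in HN44 and 112 ± 14.8 FPKM in SN14. After median-of-ratios scaling, which put the median log2 fold change over all genes tested at 0.01 instead of 0.15, the sums still did not overlap. Only the nearest libraries came close: the sums were 142.4 and 165.4 in HN44 and 99.6, 109.7 and 141.0 in SN14.

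**Figure D2:**
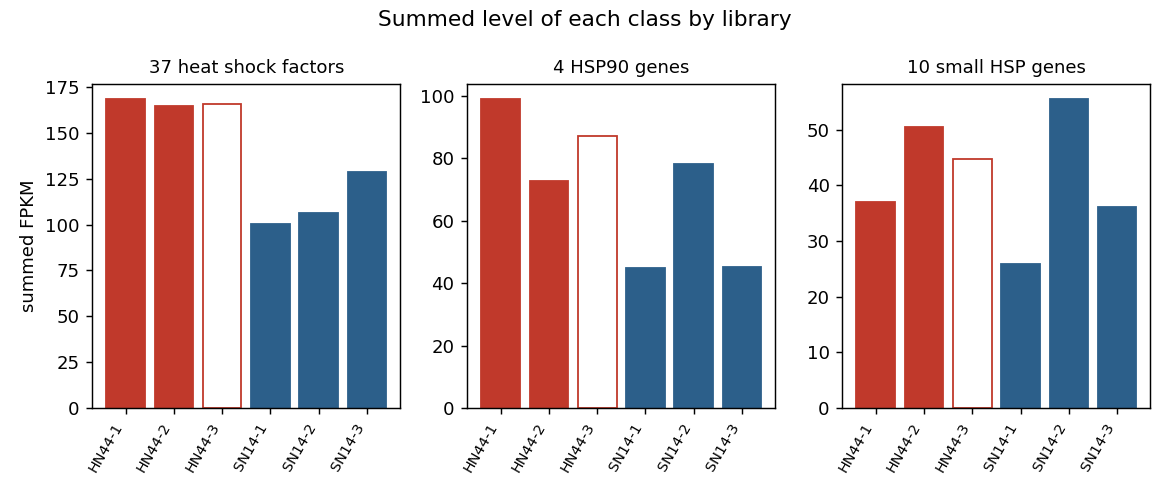
Summed FPKM per library of the 37 heat shock factors, the 4 HSP90 genes and the 10 small heat shock proteins, as deposited; HN44 libraries are left in red (HN44-3 unfilled) and SN14 right in blue. The factor sums are 164.5 FPKM or more in HN44 and 128.5 FPKM or less in SN14, while the HSP90 and small heat shock protein sums overlap between the genotypes.

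HSF-32 and HSF-20 led the factors in most libraries. HSF-32 (chromosome 16, 35760160 to 35761843) stood at 17.3 and 19.2 FPKM in HN44 (19.0 in HN44-3) and at 17.9, 13.0 and 23.7 FPKM in SN14, where it was the most abundant factor in each library. Its genotypes overlapped, with a log2 fold change of 0.04 ± 0.30 (SE; limma adjusted p = 0.957) that is negative after median-of-ratios (-0.12) and quantile scaling (-0.08). HSF-20 on chromosome 10 stood at 11.5 and 28.0 FPKM in HN44-1 and HN44-2 (18.0 in HN44-3), and at 17.6, 9.12 and 20.2 FPKM in SN14-1, SN14-2 and SN14-3. HN44-1 and SN14-2 were its low libraries, and the difference between HN44-2 and HN44-1 was 2.43-fold. In HN44-1 the highest factor was HSF-08 at 18.4 FPKM and the third was HSF-31 at 16.5 FPKM. HSF-31 was among the 4 highest factors in HN44-1 and HN44-3, and not in HN44-2 or any SN14 library.

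HSF-31 was the factor with the smallest p-value. HSF-31 (chromosome 15, 6635366 to 6637730) stood at 16.5 and 9.21 FPKM in HN44-1 and HN44-2 (12.7 in HN44-3), and at 4.51, 4.13 and 4.59 FPKM in SN14-1, SN14-2 and SN14-3. Every HN44 library was above every SN14 library, and the SN14 libraries lay close together while the HN44 libraries did not. The mean in HN44, 12.8 ± 5.14 FPKM, was 2.91 times the 4.41 ± 0.246 FPKM in SN14. The log2 fold change was 1.31 ± 0.29 (SE), with a limma adjusted p of 0.189 with 5 libraries and of 0.0309 with all 6.

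HSF-08 (chromosome 4, 4216891 to 4218094) stood at 18.4 and 10.5 FPKM in HN44 (13.5 in HN44-3) and at 5.76, 8.90 and 4.36 FPKM in SN14. Its libraries did not overlap, and its limma adjusted p was 0.311 with 5 libraries and 0.0881 with 6. HSF-03 stood at 10.9 and 10.2 FPKM in HN44 (10.4 in HN44-3) and at 2.37, 9.73 and 4.70 FPKM in SN14. The HN44 values of HSF-03 were nearly equal, and SN14-2 came close to them while SN14-1 stood far below.

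HSF-01 and HSF-19 had large fold changes that rested on HN44-2. HSF-01 (chromosome 1, 52114189 to 52116127) stood at 1.14 and 9.21 FPKM in HN44-1 and HN44-2 (3.73 in HN44-3), and at 0.62, 0.40 and 2.17 FPKM in SN14. HN44-1 lay below SN14-3, and the log2 fold change of 1.28 ± 0.70 (SE; limma adjusted p = 0.432) was 0.15 without HN44-2. HSF-19 on chromosome 10 stood at 1.28 and 4.98 FPKM in HN44 (3.50 in HN44-3) and at 0.48, 1.15 and 0.54 FPKM in SN14. Its libraries did not overlap as deposited but did after median-of-ratios scaling. The log2 fold change of HSF-19 was 1.12 ± 0.44 (SE; limma adjusted p = 0.346), and it was 0.42 without HN44-2. The model BGI_novel_G001462 (46614689 to 46616587) overlaps only the first part of HSF-19 (46614696 to 46631309) on the same strand. Reads there may be divided between them.

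No factor had a lower level in HN44 without overlap. The most negative fold changes were those of HSF-33 at -0.20, HSF-38 at -0.07 and HSF-16 at -0.01 on the log2 scale, and each of these 3 was positive in at least 1 other fit. HSF-33 stood at 3.28 and 1.19 FPKM in HN44 (2.53 in HN44-3) and at 2.02, 2.45 and 3.16 FPKM in SN14. HSF-38 stood at 0.80 and 1.03 FPKM in HN44 (0.90 in HN44-3) and at 0.86, 0.72 and 1.5 FPKM in SN14. HSF-16 stood at 3.18 and 1.48 FPKM in HN44 (3.12 in HN44-3) and at 1.93, 3.00 and 1.90 FPKM in SN14. HN44-1 and HN44-2 thus lay on both sides of the SN14 mean in HSF-33 and HSF-16.

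**Figure D3:**
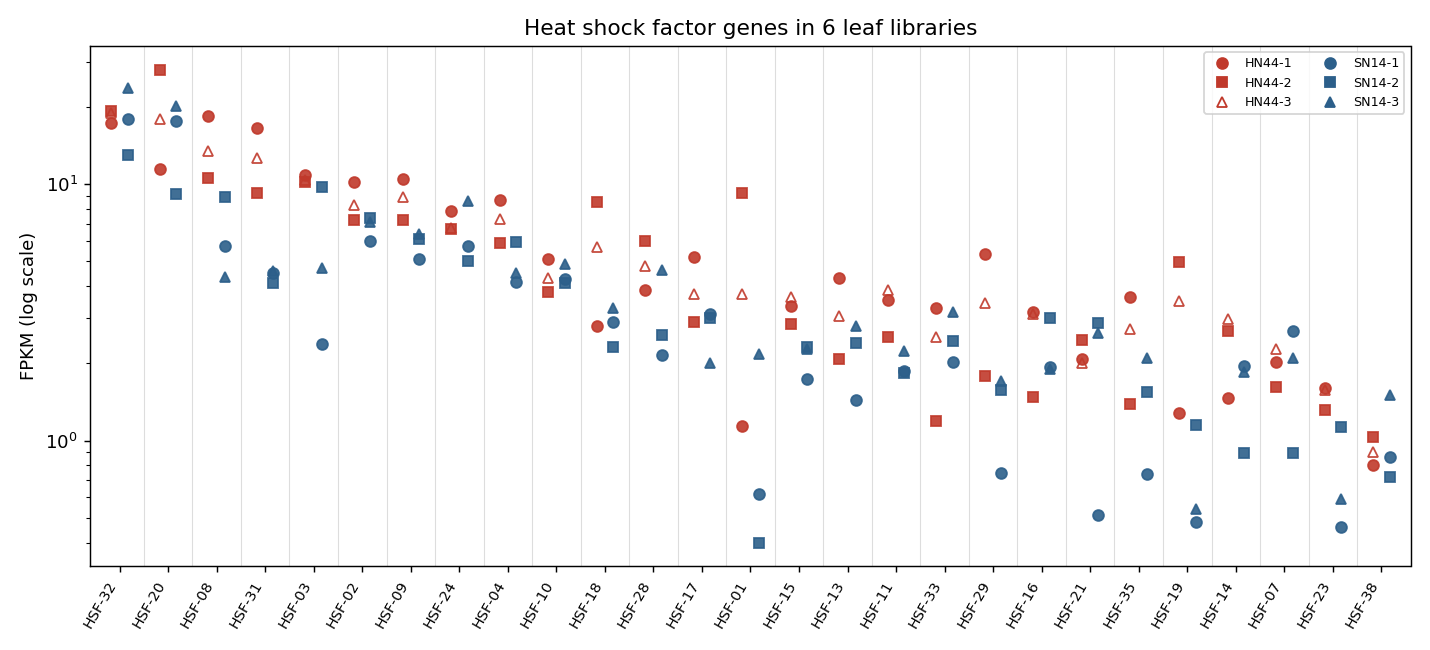
FPKM on a log axis of the 27 tested heat shock factors, ordered by mean level; each point is 1 library, with HN44 left in red (HN44-3 open) and SN14 right in blue. HSF-31 and HSF-08 show all HN44 points above all SN14 points, HSF-32 shows overlap, and the HN44 points of HSF-01 run between 1.14 and 9.21 FPKM.

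Among the other tested factors, HSF-09, HSF-11, HSF-15, HSF-23 and HSF-29 also had every HN44-1 and HN44-2 value above every SN14 value. HSF-29 had the largest fold change of these, at 0.87 ± 0.41 (SE; limma adjusted p = 0.388), from 5.35 and 1.79 FPKM in HN44 and 0.75, 1.57 and 1.70 FPKM in SN14. After median-of-ratios scaling the genotypes overlapped in HSF-29. HSF-26, too low to be tested, stood at 1.02 and 0.83 FPKM in HN44 and at 0.28, 0.35 and 0.23 FPKM in SN14, and its libraries did not overlap. HSF-25, also too low, stood at 0.53 and 1.19 FPKM in HN44 and at 0.04, 0.29 and 0.56 FPKM in SN14, with overlap. HSF-10, which RefSeq lists as a long non-coding RNA, stood at 4.45 ± 0.948 FPKM in HN44 and 4.42 ± 0.389 FPKM in SN14. HSF-05, HSF-06, HSF-22, HSF-30, HSF-34, HSF-36, HSF-37 and LOC100782841, whose synonym is HSF, stayed at or under 0.63 FPKM in every library, with 23 of 48 values listed at 0.

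Tested against the spread between libraries, no member passed. With 5 libraries, 0 of the 33 members had a limma adjusted p under 0.05, where 0.457% of all 28036 tested genes did (0.317% higher and 0.139% lower in HN44). At an unadjusted p under 0.05 there were 4 members, HSP90A1, HSF-31, HSF-08 and HSF-19, or 12.1%, against 14.0% of all tested genes. With HN44-3 added on the same genes, 2 of 33 members passed, HSF-31 and HSP90A1, both higher in HN44, where 3.51% of all tested genes passed (2.13% higher and 1.37% lower). Since HN44-3 is then counted as a separate replicate, p-values of that fit may be too small.

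Most members had a positive fold change. The log2 fold change was positive in 28 of 33 members (84.8%) and in 62.3% of all tested genes, and its median was 0.42 in the members and 0.15 in all tested genes. By class the median was 0.42 over 27 factors, from -0.20 to 1.31, with 23 positive. The 3 tested HSP90 genes were all positive, from 0.13 to 1.61, and 2 of the 3 tested small heat shock proteins were. Without the filter on low values 41 of the 54 members (75.9%) were positive, against 57.3% of all genes. After median-of-ratios scaling 25 of 33 were positive, with a median of 0.28 in the members and 0.01 in all tested genes. The genes share libraries and are not independent replicates, so these counts are descriptions.

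Both HN44 values lay above the 3 SN14 values in 12 of 33 members (36.4%) and in 23.7% of all tested genes, and below them in 0 members and in 11.8% of all tested genes. After median-of-ratios scaling 8 of 33 members did not overlap with HN44 higher, against 17.7% of all tested genes. With HN44 lower there were 0 members, against 16.5% of all tested genes. HSF-03, HSF-19, HSF-29 and HSP18.5-C overlapped after that scaling.

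**Figure D4:**
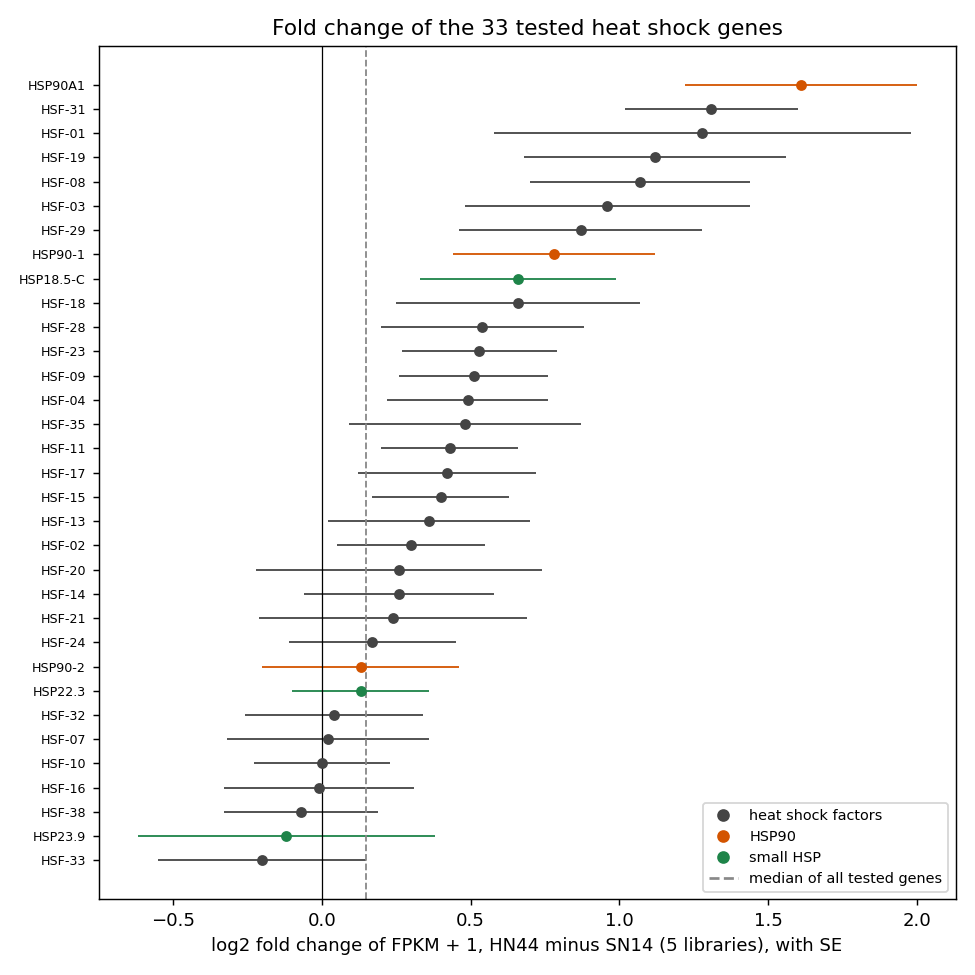
Log2 fold change of FPKM + 1, HN44 minus SN14, of the 33 tested members with 5 libraries; points are estimates, bars their standard errors, and the dashed line the median of all tested genes at 0.15. HSP90A1 at 1.61 and HSF-31 at 1.31 are at the top, and HSF-33 at -0.20 is the lowest.

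Differences between the lowest and highest library of a genotype were often as large as those between the genotype means. The larger such range of the 2 genotypes, with HN44-3 included, was set against the fold change from 5 libraries. In 27 of 33 members (81.8%, against 78.2% of all tested genes) that range, on the log2(FPKM + 1) scale, was at least the size of the fold change. HN44-1 was above HN44-2 in 22 members (66.7%, against 65.5%), and SN14-2 was the highest SN14 library in 14 (42.4%, against 28.5%). Both held in 10 members (30.3%, against 23.2%), among them the tested HSP90 genes HSP90-1, HSP90-2 and HSP90A1 and the factors HSF-03 and HSF-08. The HSP90 sum showed the same order, at 98.9 and 72.8 FPKM in HN44-1 and HN44-2 (87.1 in HN44-3) and at 45.0, 78.0 and 45.2 FPKM in SN14-1, SN14-2 and SN14-3. SN14-2 thus lay above HN44-2 for this class.

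The reverse order, low in HN44-1 and in SN14-2, held in 6 members (18.2%, against 14.0%), all factors: HSF-01, HSF-14, HSF-18, HSF-20, HSF-32 and HSF-38. HSF-18 stood at 2.80 and 8.53 FPKM in HN44-1 and HN44-2 (5.66 in HN44-3) and at 2.89, 2.31 and 3.30 FPKM in SN14, so that HN44-1 lay among the SN14 values and HN44-2 well above them. HN44-2 was also the high HN44 library for HSP23.9 and HSP18.5-C, where SN14-2 was the high SN14 library. What set the libraries of a genotype apart, such as the hour, plant or leaf sampled, is not given in the labels used here and was not tested.

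**Figure D5:**
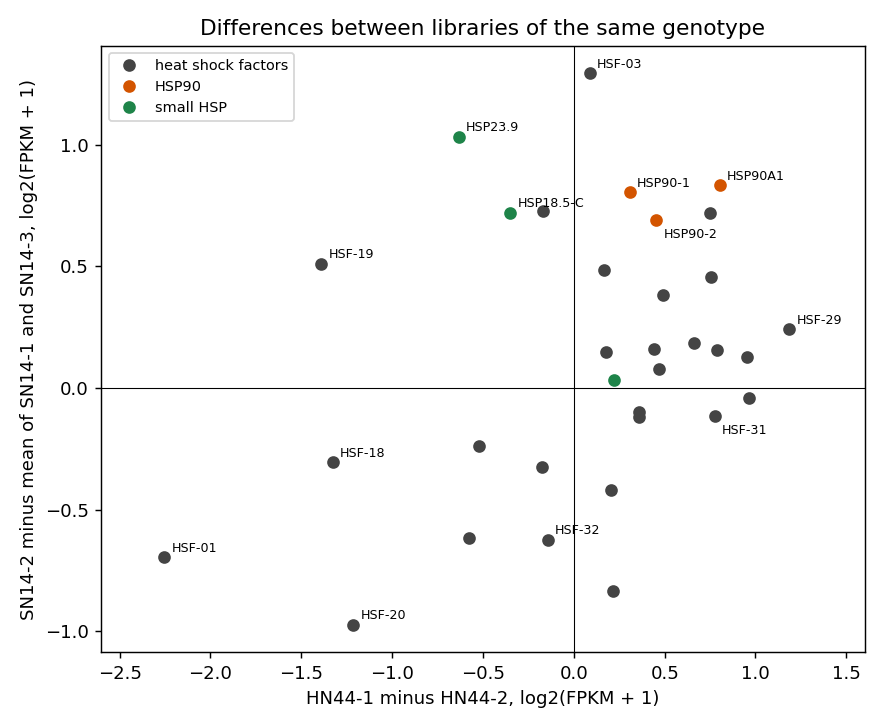
Difference between HN44-1 and HN44-2 (x axis) and between SN14-2 and the mean of SN14-1 and SN14-3 (y axis), both in log2(FPKM + 1), for the 33 tested members. The 3 HSP90 genes lie in the upper right, HSF-01 at -2.25 and HSF-20 at -1.21 on the x axis in the lower left, and HSP23.9 and HSP18.5-C in the upper left.

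Related genes chosen by the first letters of their symbols were few: 21 were in the table and 20 were tested. The list mixes co-chaperones and organelle chaperones with stress response genes such as APX, DREB2 and GOLS, so not all are chaperone partners. None of the 20 passed with 5 libraries (3 at an unadjusted p under 0.05), and with all 6 libraries 1 passed, lower in HN44. That gene was PDIL-2, for a protein disulfide isomerase of the secretory pathway, at 5.94 and 6.15 FPKM in HN44 (5.45 in HN44-3) and 15.4, 14.2 and 10.6 FPKM in SN14. Its limma adjusted p was 0.225 with 5 libraries and 0.0343 with 6. HOP1, whose protein links HSP70 to HSP90, stood at 7.29 and 5.37 FPKM in HN44 (6.96 in HN44-3) and at 1.38, 2.05 and 3.49 FPKM in SN14. Its libraries did not overlap, and its limma adjusted p was 0.26 with 5 libraries and 0.0558 with 6.

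APX1 and APX2, for ascorbate peroxidases that remove hydrogen peroxide, stood at 269 ± 86.9 and 372 ± 59.8 FPKM in HN44 and at 145 ± 53.5 and 193 ± 75.7 FPKM in SN14, and neither passed in either fit. The HSP90 partner genes RAR1-1 and RAR1-2, which act in disease resistance, and DNAJ, for an HSP40-type protein, overlapped between the genotypes. DNAJ stood at 47.9 ± 5.47 FPKM in HN44 and 49.0 ± 13.6 FPKM in SN14. BIP2 and BIP4, for HSP70 proteins of the endoplasmic reticulum, overlapped too. BAG6A, named for a family of HSP70 co-chaperones, was listed at 0 and 0.04 FPKM in HN44 (0.04 in HN44-3) and stood at 0.77, 1.16 and 0.89 FPKM in SN14. It was too low to be tested, and its libraries did not overlap. Over the 20 tested genes of this mixed list the median log2 fold change was -0.01, with 9 positive.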

How the data were processed

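FPKM per gene were deposited by the authors in 1 table, per the file headers, with the start, end and strand of each gene. Per the submitters' processing notes the tools were RSEM 1.2.12, Bowtie2 2.2.5, HISAT2 2.0.4 and DESeq2 1.4.5, with no role stated. Genome build: not given in the sources used. Coordinates are those of the table. Symbols and chromosome numbers, but no coordinates, came from RefSeq (assembly Glycine_max_v4.0), where 37544 of 38907 NCBI gene numbers matched. Promoter and protein sequences were not used here.

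A trended limma fit (version 3.58.1, R 4.3.3) was made on log2(FPKM + 1), which understates changes of low genes. It covered genes that reached 1 FPKM in 2 or more of the 5 libraries, with Benjamini-Hochberg adjustment and a threshold of 0.05. The fit was tested on simulated data. Fold changes are HN44 minus SN14. No read totals entered the fit, and the counting error behind each value is unknown.

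Members, gene lists and tests were chosen with earlier results of these data known. Values in every library were given for members past the threshold in either fit, the highest member of each class, the 4 largest fold changes in each direction and the 4 largest ranges within a genotype; other members shown were picked after their values were seen.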

Additional observations from a re-analysis of the deposited data

How the results depend on the processing

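Among the alternatives run, 0 of the tested members passed an adjusted p of 0.05 except with HN44-3 added, where 2 passed on the same genes and 2 with 1 FPKM in at least 3 of 6 libraries. HSP90A1 and HSF-31 stayed positive in each of 13 alternatives, with log2 fold changes of 1.21 to 2.01 (adjusted p 0.0401 to 0.886) and of 0.92 to 1.69 (adjusted p 0.0301 to 0.743). The member median lay between 0.27 and 0.54, against 0.42. Genes past the threshold numbered 128 with 5 libraries, 983 and 1025 with all 6, 15 with 1 FPKM in at least 3 of 5, and 2 to 168 when 1 further library was left out (2 without HN44-2, 4 without HN44-1, 18 without SN14-3, 63 without SN14-2). Without HN44-1 or HN44-2 the remaining HN44 library was assumed to vary like SN14.

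With the replicate block 0 genes passed (1810 at an unadjusted p under 0.05), HSF-38 turned to 0.1, and 1 residual degree of freedom was left. Deviations of HN44-1 correlated at -0.23 with SN14-1 and at 0.43 with SN14-2, and those of HN44-2 at -0.43 with SN14-2. With only HN44-1 and HN44-2 used, the deviations of HN44-2 mirror those of HN44-1. These correlations are therefore not independent of each other, and whether same-numbered libraries pair was not tested.

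Members with fold changes near 0 changed sign. HSF-16 was 0.11 in both fits with 6 libraries and HSF-32 was -0.12 after median-of-ratios and -0.08 after quantile scaling. When 1 library was left out, HSF-16 ran between -0.39 and 0.37, HSF-32 between -0.17 and 0.24, HSF-33 between -0.68 and 0.29, HSF-38 between -0.17 and 0.1 and HSP23.9 between -0.57 and 0.22. The cause was not tested. Read totals were not used, so the counting error of low values is unknown.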
